A study of Mus musculus with 2 samples.

Results

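The vascular endothelial growth factor (VEGF) family was followed in primary mouse osteoblast cultures through its 5 ligand genes (Vegfa, Vegfb, Vegfc, Vegfd and Pgf), its 3 receptor tyrosine kinase genes (Flt1, Kdr and Flt4) and the 2 neuropilin coreceptor genes (Nrp1 and Nrp2). Members were taken by gene symbol, which gave 25 probe sets for these 10 genes out of 18193 genes named on the array. The cultures were CD11b-negative cells from the calvariae, or skull roof bones, of newborn mice, and no genotype, strain or further treatment was named in the labels. The later culture had received ascorbic acid and β-glycerophosphate for 12 days and the earlier one the same agents for 5 days, so both carried the agents that drive osteoblast differentiation. Total RNA of each culture was hybridised to 1 Affymetrix array. With 1 array per day there was no replicate error and no p-value for any value below, and every difference is between these 2 arrays.

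VEGF ligands are secreted dimers that guide the growth of blood and lymph vessels. Vegfa acts through Kdr (VEGFR2) and binds the decoy-like Flt1 (VEGFR1), Vegfb and Pgf bind Flt1, and Vegfc and Vegfd bind Flt4 (VEGFR3), the receptor of lymphatic vessels. Nrp1 and Nrp2 lack a kinase of their own and serve both as VEGF coreceptors and as receptors of class 3 semaphorins. In bone, osteoblasts and hypertrophic chondrocytes are known sources of VEGF, which couples vessel ingrowth to bone formation, and Vegfa is a known target of the hypoxia-inducible transcription factors.

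Vegfa and Nrp2 had a higher signal at day 12, by 6.80-fold and 2.46-fold in their brightest probe sets. Vegfb, Vegfc, Vegfd and Nrp1 differed by less than 2-fold, and Pgf and the 3 receptor kinase genes stayed below the floor on both arrays. The floor was each array's 60th percentile of signal, 44.8 at day 12, against 46.6 at day 5, and a gene was counted as measured where at least 1 array reached it. All 6 measured members lay above it on both arrays. Of these 6, 2 were at least 2-fold higher at day 12 while 0 were lower by as much, where 3.56% of 10479 measured genes were higher and 1.73% lower by that much. The family was chosen with the value of Vegfa known, so its share is a description. The median log2 ratio of day 12 over day 5 was -0.10 for the 6 members, beside -0.05 for all measured genes. By probe set, 15 of 25 were measured, 5 of them were at least 2-fold higher and 0 lower by as much, where 3.16% of 17431 measured probe sets were higher and 1.72% lower by that much.

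**Figure D1:**
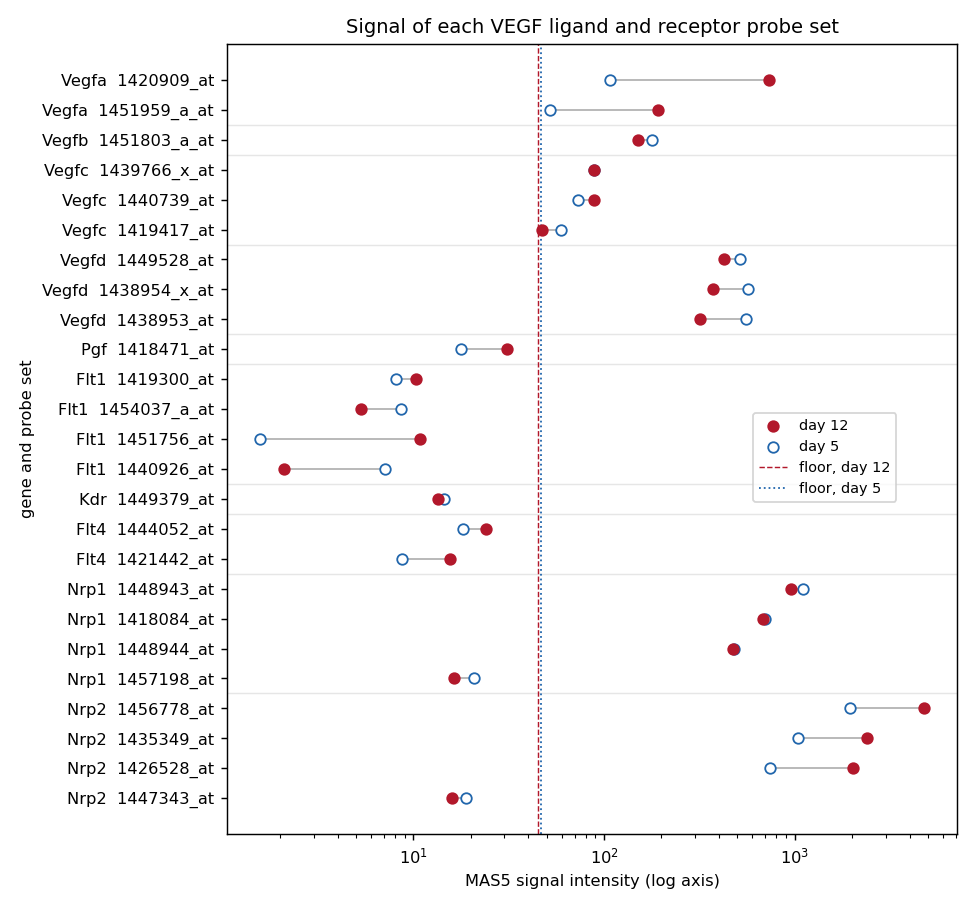
Signal of all 25 probe sets of the 10 VEGF genes on a log axis, with day 12 as filled and day 5 as open circles and the floor of each array as a vertical line. Both Vegfa probe sets and 3 of the 4 Nrp2 probe sets lie well to the right at day 12, and every Pgf, Flt1, Kdr and Flt4 circle lies left of the floor. Probe sets differ in how brightly they report the same amount of RNA, so circles are to be compared within a row.

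The promoters of the 2 genes that passed 2-fold are shown because they are the start regions of the members that moved, as RefSeq gives them on GRCm38.p6, from 250 bases before to 50 bases after a gene's start. All 10 members matched this table, with 12 promoters in all. Capitals mark the GC box GGGCGG and the cores ACGTG and GCGTG of the hypoxia response element, on either strand. Vegfa is shown at its upstream start, chr17:46032328-46032627 on the minus strand, and Nrp2 at chr1:62703067-62703366 on the plus strand.
Vegfa: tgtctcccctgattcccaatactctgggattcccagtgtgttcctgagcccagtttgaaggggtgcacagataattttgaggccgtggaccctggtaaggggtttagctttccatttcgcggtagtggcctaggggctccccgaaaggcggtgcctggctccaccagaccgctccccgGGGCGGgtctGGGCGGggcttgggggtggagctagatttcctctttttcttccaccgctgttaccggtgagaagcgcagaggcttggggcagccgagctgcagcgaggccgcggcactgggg
Nrp2: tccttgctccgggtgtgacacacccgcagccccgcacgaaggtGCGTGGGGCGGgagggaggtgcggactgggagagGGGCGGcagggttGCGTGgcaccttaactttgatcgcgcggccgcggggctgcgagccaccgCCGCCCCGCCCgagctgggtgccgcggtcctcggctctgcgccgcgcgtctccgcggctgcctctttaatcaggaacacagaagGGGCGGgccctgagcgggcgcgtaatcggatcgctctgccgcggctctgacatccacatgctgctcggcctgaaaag
The Vegfa window held 2 GC boxes and 0 hypoxia response cores, while the Nrp2 window held 5 GC boxes, of which a pair overlaps, and 2 GCGTG cores. A further Vegfa start, at chr17:46025114-46025413, held 2 hypoxia response cores and 1 GC box. Over the 12 member promoters, 7 held at least 1 of the 2 cores and 10 a GC box. Of 32851 promoters in the whole table, 43.8% held a core and 35.7% a GC box. Nrp1, which did not pass 2-fold, held 1 core and 1 GC box, and the Vegfd promoter held neither motif. These matches describe the letters of the windows, and absence of a match says nothing of elements outside them, where the hypoxia response element described for human VEGFA lies.

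Vegfa, the main angiogenic ligand, was measured by 2 probe sets. The brighter one, 1420909_at, had a signal of 730.4 at day 12, against 107.4 at day 5, a log2 ratio of 2.77. The other, 1451959_a_at, had a signal of 192.2 at day 12, against 52.2 at day 5, a log2 ratio of 1.88. Both were past 2-fold in the same direction, and they disagreed in size by 0.88 on the log2 scale. Over 4446 genes that had several measured probe sets, the 2 brightest differed by a median of 0.17, and by at least as much as those of Vegfa in 2.25% of genes. Among the 145 such genes that were at least 2-fold higher at day 12, the median difference was 0.32. With the 75th percentile of signal as floor the day 5 value of Vegfa was raised to it, and the log2 ratio became 2.01. Of the 9810 genes that both arrays placed above the floor, Vegfa held rank 26 from the highest ratio.

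Vegfb, a ligand of Flt1 known for roles in fatty acid uptake and in heart muscle, had a signal of 149.7 at day 12, against 178.0 at day 5 in its only probe set. Its log2 ratio of -0.25 lay between the quartiles of all measured genes, which were -0.27 and 0.17. Vegfc, the principal ligand for lymphatic growth, had 3 probe sets with signals of 88.7, 88.2 and 47.2 at day 12, and of 88.0, 73.3 and 59.3 at day 5 in the same order. Their log2 ratios of 0.01, 0.27 and -0.33 had no common direction, and the day 12 value of 47.2 was close to the floor of 44.8. The brightest, 1439766_x_at, stands for the gene, and its ending marks a probe set that can also bind related transcripts. Without probe sets of shared sequence the ratio of Vegfc was 0.27.

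Vegfd, the other ligand of Flt4, was lower at day 12 in each of its 3 probe sets, none of which reached 2-fold. The signal was 427.2 at day 12, against 515.6 at day 5 in 1449528_at. It was 372.0 at day 12, against 568.8 at day 5 in 1438954_x_at, and 318.4 at day 12, against 555.2 at day 5 in 1438953_at. The log2 ratios were -0.27, -0.61 and -0.80, so the probe set that stands for the gene gave the smallest of the 3 differences. Probe sets with the ending _x_at can also bind related transcripts. Its lowest ratio was the lowest of any measured probe set of the family. Pgf, placental growth factor, had a signal of 30.9 at day 12, against 17.6 at day 5. Both values lay below the floor, and no fold is given.

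The receptor kinase genes gave no measured signal. The 4 probe sets of Flt1 ranged from 2.10 to 10.8 at day 12 and from 1.56 to 8.62 at day 5. Kdr, the main signalling receptor of Vegfa in endothelium, had a signal of 13.4 at day 12, against 14.4 at day 5 in its only probe set. Flt4 had signals of 24.1 and 15.5 at day 12, and of 18.2 and 8.67 at day 5. All 7 probe sets of the 3 genes were below the floor on both arrays, and a signal below the floor is not a measurement of absence.

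Of the neuropilin genes, Nrp2 passed 2-fold and Nrp1 did not. Nrp2, a coreceptor of Vegfc and a receptor of Sema3f, had signals of 4778, 2407 and 2025 at day 12, and of 1942, 1037 and 742.7 at day 5 in the same 3 probe sets. Their log2 ratios were 1.30, 1.21 and 1.45, a spread of 0.23. These probe sets read the same 2 RNA samples, so the spread says nothing of variation between cultures or arrays. The fourth probe set, 1447343_at, lay below the floor with 16.0 at day 12, against 18.8 at day 5. Nrp2 held rank 190 of 9810 from the highest ratio.

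Nrp1, the coreceptor of Vegfa and receptor of Sema3a, had signals of 959.5, 683.2 and 475.1 at day 12, against 1110, 698.6 and 481.1 at day 5. Its log2 ratios were -0.21, -0.03 and -0.02, and the fourth probe set was again below the floor, with 16.4 at day 12, against 20.8 at day 5. The measured probe sets of Nrp1 and Nrp2 did not overlap in ratio. This is a comparison of probe sets on 2 arrays and carries no test.

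**Figure D2:**
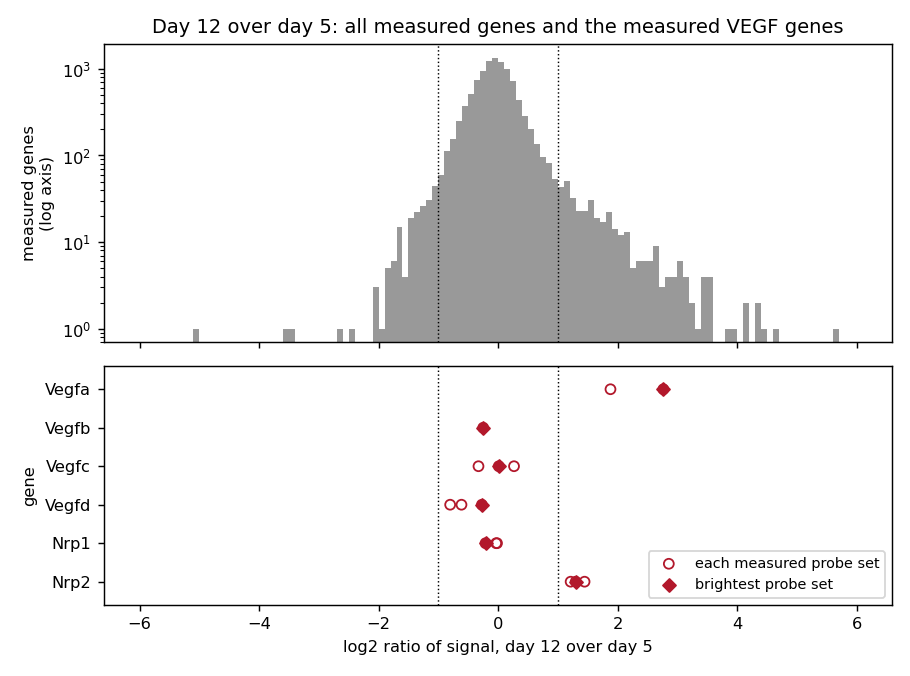
Upper panel, histogram of the log2 ratio of day 12 over day 5 for 10479 measured genes, with a log count axis. Lower panel, the same ratio for the 6 measured VEGF genes, with a diamond for the brightest probe set and circles for each measured probe set, and dotted lines at 2-fold. Vegfa and Nrp2 lie right of the upper dotted line in every measured probe set, and the other 4 genes lie between the lines.

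Markers of other cell types were read beside these values, since bulk RNA mixes cells, and fewer cells of a type cannot be told apart from less RNA per cell. Of 18 endothelial markers, 13 lay below the floor on both arrays. Among them were the defining genes Pecam1, with a signal of 2.62 at day 12, against 10.3 at day 5, Cdh5 (VE-cadherin), with 27.9 at day 12, against 16.1 at day 5, Tek, with 9.81 at day 12, against 13.0 at day 5, and Vwf, with 0.98 at day 12, against 0.86 at day 5. The highest signal among these 13 was 27.9 at day 12, against 31.7 at day 5. The 5 measured ones were Eng, Ecscr, Egfl7, Erg and Esam, with log2 ratios between -0.28 and 0.42. None was past 2-fold, where 3.56% of all measured genes were higher and 1.73% lower by that much. The summed signal of the 18 was 722.8 at day 12, against 773.3 at day 5. It adds probe sets of unequal brightness, and Eng alone gave 286.4 of it at day 12, against 302.5 at day 5. Lymphatic markers Prox1 and Lyve1 were below the floor too, with 8.81 and 12.1 at day 12, and 2.88 and 11.7 at day 5. Pdpn, which osteoblast-lineage cells also express, had a signal of 1995 at day 12, against 3092 at day 5.

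Myeloid markers were higher at day 12 although CD11b-positive cells had been removed. Of 13 measured of 14, 10 were at least 2-fold higher and 0 lower by as much, and the summed signal of all 14 was 12560 at day 12, against 5110 at day 5. Itgam, which encodes CD11b itself, was below the floor on both arrays, with 35.4 at day 12, against 14.6 at day 5. Macrophages can express Vegfa and Nrp2, and the part of the myeloid signal in these 2 ratios was not tested. Chondrocyte markers went the other way, with 8 of 12 measured at least 2-fold lower, 0 at least 2-fold higher and a summed signal over all 13 markers of 17020 at day 12, against 38237 at day 5. Among them Matn1, Snorc and Ucma were below the floor at day 12. Their part in the ratio of Vegfd or of any other member was not tested. Of 8 osteoblast markers measured, 6 were at least 2-fold higher and 0 lower by as much, with a summed signal of 45715 at day 12, against 21971 at day 5. Beside these marker counts, 3.56% of all measured genes were higher and 1.73% lower by that much.

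**Figure D3:**
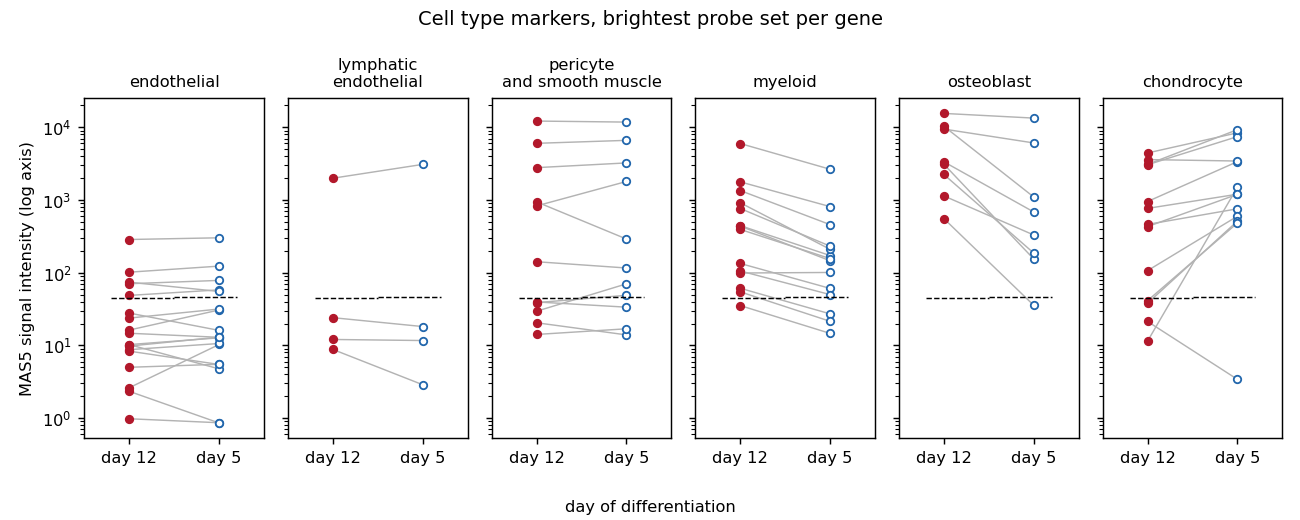
Signal of each marker gene of 6 cell types in its brightest probe set on a log axis, with day 12 left as filled and day 5 right as open circles, 1 line per gene, and the floor of each array dashed. Most endothelial markers lie below the floor at both times, most myeloid and osteoblast lines are higher at day 12, and most chondrocyte lines are lower.

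Vegfa was next set beside the genes of hypoxia and glycolysis, of which it is commonly counted as a member. Of 32 measured genes of that list other than the VEGF genes, 28 were at least 2-fold higher and 0 lower by as much. Of all 10479 measured genes, 3.56% were higher and 1.73% lower by that much. The median log2 ratio of the list was 2.07, and 9 genes had a larger log2 ratio in their brightest probe set than the brighter Vegfa probe set (2.77). The other Vegfa probe set, at 1.88, lay below that median. Some of these 9 genes had smaller ratios in other measured probe sets, down to 0.76 for Ak4 (3.50 in its brightest). Egln3, Car9 and Ankrd37, also among the 9, were below the floor at day 5, so their ratios are lower bounds. The list was drawn up with earlier results of these arrays known and is no independent evidence. The 5 genes with the log2 ratio nearest to that of Vegfa were Panx3 (2.76), a pannexin channel of osteoblasts and chondrocytes, Slc8a3 (2.82), a sodium-calcium exchanger, Pfkfb3 (2.70), an activator of glycolysis, Hk2 (2.69), a hexokinase, and Smpd3 (2.68), a sphingomyelinase required for mineralisation. Likeness here is the difference in 1 ratio over 2 arrays, taken from the brighter Vegfa probe set. Panx3 had a second measured probe set at only 0.28, while the lowest of 3 for Smpd3 was 1.63.

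Of the transcription factors that act on Vegfa under low oxygen, Hif1a had a signal of 4392 at day 12, against 3514 at day 5, a log2 ratio of 0.32, with -0.10 in its lowest probe set. Epas1, which encodes HIF-2α, had a log2 ratio of -0.74, and the partner gene Arnt of 0.66, with 0.04 in its other probe set. Of 9 measured HIF subunit and regulator genes, 2 were at least 2-fold higher and 0 lower by as much, with a median of 0.27. Of all measured genes, 3.56% were higher and 1.73% lower by that much. The 2 higher genes of the HIF list were the prolyl hydroxylase genes Egln1 (4.15-fold) and Egln3 (at least 48.8-fold, from below the floor at day 5). The other probe set of Egln3 gave 3.11 on the log2 scale. Both genes are known HIF targets and are also among the 28 higher genes of the hypoxia and glycolysis list counted above. Hif1a is regulated mainly at the protein level, which an RNA array does not measure.

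Genes that carry the VEGF signal inside the cell were counted in the same way. Of 32 measured genes of VEGF signal transduction, 1 was at least 2-fold higher and 0 lower by as much. These shares are near the 3.56% and 1.73% of all measured genes and are no result about the list, whose median log2 ratio was -0.06. The 1 higher gene was Ptgs2, the inducible cyclooxygenase, with a signal of 1194 at day 12, against 518.9 at day 5 (2.30-fold). Plcg1, the phospholipase that binds activated Kdr, had a log2 ratio of 0.02. Many genes of this list serve other receptors too. Of 6 measured genes that process Vegfc and Vegfd precursors, 0 were past 2-fold in either direction, which in so short a list is near those shares too. Pcsk5, a proprotein convertase, came closest, with a signal of 1105 at day 12, against 575.5 at day 5, a log2 ratio of 0.94. Adamts3, the protease that activates Vegfc, had a log2 ratio of 0.15, and its cofactor gene Ccbe1 was below the floor on both arrays.

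The other ligands and partners of the neuropilins were counted next. Of 9 measured class 3 semaphorin and plexin genes, 1 was at least 2-fold higher and 2 lower by as much, with a median of -0.38. Beside them, 3.56% of all measured genes were higher and 1.73% lower by that much. In so short a list these counts are a description. Sema3d had a signal of 1259 at day 12, against 528.0 at day 5 (2.38-fold higher), and its other measured probe set had a larger log2 ratio of 1.75. Sema3c, a ligand of both neuropilins, had a signal of 1610 at day 12, against 3348 at day 5, a log2 ratio of -1.06, with -1.12 in its other probe set. Sema3e, which binds Plxnd1 without a neuropilin, had a signal of 137.7 at day 12, against 447.7 at day 5, a log2 ratio of -1.70, but -0.17 in the weakest of its 4 measured probe sets. Sema3a, the repulsive ligand of Nrp1 made by osteoblasts, had a log2 ratio of -0.37, and its 3 measured probe sets ranged from -0.86 to -0.23. Sema3f, the ligand of Nrp2, was below the floor on both arrays, with 12.3 at day 12, against 41.7 at day 5. The plexin genes, which transmit the semaphorin signal, had log2 ratios of -0.53 for Plxna2, -0.48 for Plxnd1, -0.38 for Plxna1 and 0.08 for Plxna3 in their brightest probe sets, and the 4 measured probe sets of Plxna2 ranged from -1.21 to -0.44.

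Among other angiogenic factors, 3 of 14 measured genes were at least 2-fold higher and 0 lower by as much, with a median of 0.38. The shares of all measured genes were 3.56% higher and 1.73% lower, and in so short a list the counts are a description. Esm1 (endocan), a proteoglycan known from endothelial tip cells and induced by VEGF there, had a signal of 428.1 at day 12, against 117.9 at day 5 (3.63-fold). Apln, the apelin peptide gene, had a signal of 321.0 at day 12, against 89.1 at day 5 (3.60-fold). The gene of its receptor, Aplnr, was below the floor on both arrays. Pdgfa, a growth factor for mesenchymal cells, had a signal of 2405 at day 12, against 815.3 at day 5 (2.95-fold), with 2 probe sets at 1.56 and 1.59 on the log2 scale. Angpt1 and Angpt2, the ligands of Tek, had log2 ratios of 0.40 and 0.04.

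Of 11 measured inhibitors of vessel growth, 0 were at least 2-fold higher and 2 lower by as much, with a median of -0.15. The shares of all measured genes were 3.56% higher and 1.73% lower, so counts in so short a list are a description. Cnmd (chondromodulin), an inhibitor made by cartilage, had a signal of 3091 at day 12, against 9292 at day 5 (3.01-fold lower) and is also 1 of the chondrocyte markers counted above. Vash2, a vasohibin that is described as promoting rather than inhibiting vessel growth in some settings, had a signal of 64.8 at day 12, against 191.1 at day 5 (2.95-fold lower), and its day 12 signal is close to the floor. Thbs1 (thrombospondin), Serpinf1 and Timp3 had log2 ratios within 0.14 of 0 in their brightest probe sets, with 0.38 in the other probe set of Serpinf1 and up to 0.15 in those of Timp3. Col18a1 was lower, short of 2-fold, with log2 ratios of -0.77 and -0.67 in 2 probe sets. The remaining brightest probe sets gave -0.36 for Adamts1, -0.27 for Tnmd, -0.15 for Timp2, 0.24 for Sparc and 0.33 for Thbs2. Over all measured probe sets Timp2 ranged from -0.48 to 0.05 and Thbs2 from -0.04 to 0.33, so neither had a common direction. Comparisons of these lists with the VEGF genes rest on the same 2 arrays and share both samples.

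**Figure D4:**
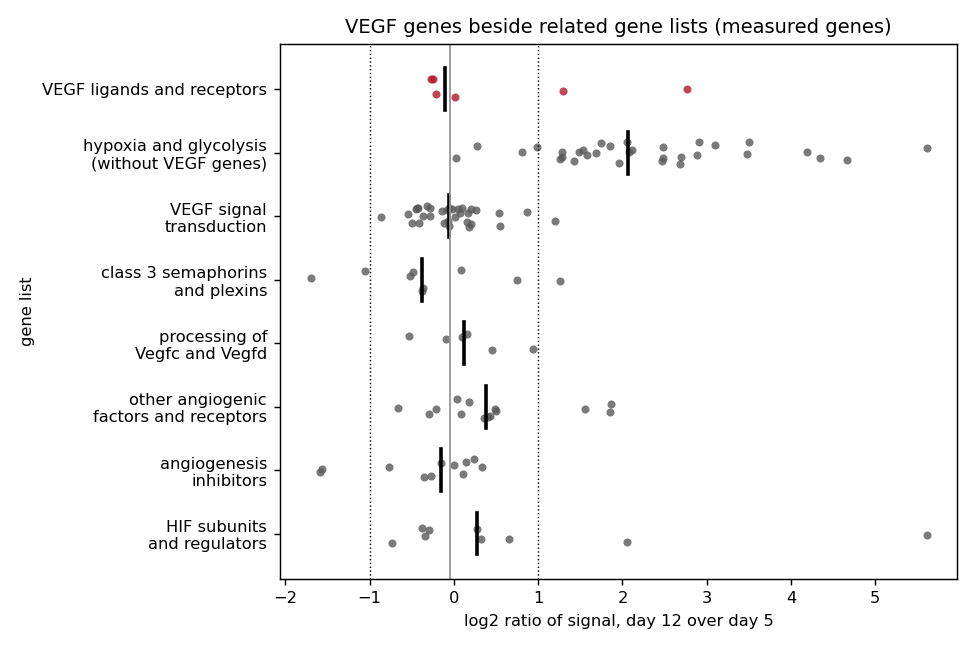
Log2 ratio of day 12 over day 5 for the measured genes of the VEGF family and of 7 related lists, 1 point per gene, with a black bar at each list's median, a grey line at the median of all measured genes and dotted lines at 2-fold. The hypoxia and glycolysis genes lie mostly right of the upper 2-fold line, where Vegfa and Nrp2 also lie, and the medians of the other lists lie between -0.38 and 0.38.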

How the data were processed

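RNA of 2 mouse calvarial cultures, 1 per day, was labelled with biotin and read on 1 Affymetrix array per culture (per the labels' protocols). The authors deposited linear signal intensity values of 45101 probe sets, made with GCOS 1.4 and MAS5 per the submitters' processing notes. The mean after trimming 2% at each end was 200.0 on both arrays, so each array had been scaled to 1 target, and a change in total RNA per cell cannot be seen. No detection call was used here, and a genome build for the arrays is not given in the sources used here.

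Probe sets with 1 gene symbol in the platform annotation, 34945 of 45037 other than controls, were named. For 34741 of them the current symbol was taken through the Entrez number, whether or not it differed from the old one. The rest, 932 with several symbols and 9160 with none, were not named. Deposited values were used without further normalisation. A gene was represented by its brightest probe set (by mean log2 signal). Values below the floor, each array's 60th percentile, were set to that floor before log2 ratios were computed, so differences of dim genes are understated. With 1 array per day, no test was possible, and at least 2-fold counted as higher or lower. The number of arrays limits the precision.

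The members and lists were chosen with earlier results of these data known. The naming rule took all members and their probe sets, the list and marker genes past 2-fold (at most 6 a direction), any gene of lists under 15 genes, and the 5 genes nearest to Vegfa in ratio. Plcg1, Angpt1, Angpt2, Aplnr and the endothelial markers were added after their values were seen. Some listed genes were not analysed here. Results were recomputed with other thresholds (3-fold, 1.5-fold), other floors (75th or 50th percentile, or a pseudocount), other scaling (quantile, median, loess), each gene's median probe-set value, and without probe sets that share sequence. Scripts were first tested on simulated data. The scripts ran under Python 3.11.15 with pandas 2.3.3, numpy 2.4.6, statsmodels 0.14.6 and scipy 1.17.1.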

Additional observations from a re-analysis of the deposited data

How the results depend on the processing

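Under the 8 alternatives that recompute a log2 ratio, Vegfa and Nrp2 kept their direction, with log2 ratios from 2.01 to 2.87 and from 1.22 to 1.33, the deposited setting included. No member was counted as lower under any of the 10 alternatives, which add the thresholds of 1.5-fold and 3-fold. At 1.5-fold that count rests on the brightest probe set of Vegfd. Its other probe sets, 1438954_x_at and 1438953_at, were lower by 1.53-fold and 1.74-fold, past that threshold. The count of members at least 2-fold higher was 1 with a threshold of 3-fold. The median of the members, -0.10 as deposited, became 0.15 with the 50th percentile floor, where Pgf (0.65) and Flt4 (0.29) entered as bounds. With the 75th percentile floor it was 0.54, but there Vegfb and Vegfc fell below the floor and dropped out. It was 0.12 with the median over probe sets. Without probe sets of shared sequence it was 0.27, and Vegfb, whose only probe set is of that kind, dropped out. These medians cover partly different members, and the sign of the median is not settled. Vegfd became -0.58 with the median over probe sets. Of all genes, with the 75th percentile floor 223 were at least 2-fold higher and 74 lower, and 297 were lower with the 50th percentile floor and 99 with a pseudocount in place of the floor. At 1.5-fold the counts were 760 higher and 807 lower, and at 3-fold 175 and 36. Of VEGF signal transduction genes, 2 were higher with the 50th percentile floor, 2 higher and 1 lower at 1.5-fold and 0 higher at 3-fold. Of semaphorin and plexin genes, 1 was lower with the median over probe sets, 2 were higher at 1.5-fold, and 0 higher and 1 lower at 3-fold. Of other angiogenic factors, 1 was lower at 1.5-fold and with the median over probe sets, and the same count held for HIF regulators. Of processing genes, 1 was higher at 1.5-fold. Of angiogenesis inhibitors, 1 was lower with the 75th percentile floor and at 3-fold. Except where a threshold, a floor or the choice of probe sets itself changed the count, the cause was not tested. Without replicate arrays no array could be left out. No paired analysis was possible because there was 1 array per day.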

Other observations

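Genes of the cells that wrap vessels were also read. Of 11 pericyte and smooth muscle markers, 8 were measured, 1 was at least 2-fold higher at day 12 and 1 at least 2-fold lower. In so short a list these counts are a description, beside 3.56% higher and 1.73% lower among all measured genes. Cspg4 (NG2), a proteoglycan of pericytes and of other mesenchymal cells, had a signal of 943.8 at day 12, against 290.8 at day 5 (3.25-fold higher), and its log2 ratios were 1.70 and 1.81 in 2 probe sets. Cnn1 (calponin), a smooth muscle protein, had a signal of 829.9 at day 12, against 1799 at day 5 (2.17-fold lower). Rgs5, a marker of pericytes, was below the floor at day 12, with a signal of 29.5, and had 70.4 at day 5. Acta2 and Pdgfrb, which fibroblast-like cells also express, had log2 ratios of 0.05 and -0.22 in their brightest probe sets. Their other measured probe sets gave -0.89 and -0.55.

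The promoters of the hypoxia and glycolysis list were searched with the same motifs as those of the VEGF genes. Of 48 promoters of 32 genes, 39 (81.2%) held an ACGTG or GCGTG core and 38 (79.2%) a GC box, beside 43.8% and 35.7% of 32851 promoters. Promoters of 1 gene can overlap in sequence, base composition was not matched, and the shares carry no test.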
